A study of Mus musculus with 170 samples.

Results

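The 10 genes described here encode 2 Tie receptors (Tek and Tie1), 2 of their angiopoietin ligands (Angpt1 and Angpt2) and 6 surface proteins by which endothelial cells are usually recognised (Pecam1, Cdh5, Emcn, Eng, Esam and Cldn5). They were chosen by name, and all 10 were found among the 40549 genes of the expression table. The single cells came from the ventricular part of embryonic day 9.5 mouse hearts on a C57BL/6 background, and were read by Smart-seq2. Control embryos were homozygous for the floxed allele (Dgcr8 loxP/loxP; ROSA26 mT/mG/+) and carried no Cre, although the labels call them wild type. The cKO embryos were Mesp1Cre/+ Dgcr8 loxP/loxP with the same reporter, so the deletion extends to all descendants of Mesp1 progenitors, endocardium as well as myocardium. Dgcr8 encodes a subunit of the microprocessor, which cuts primary microRNA transcripts. The study asked whether vascular genes in cKO hearts are switched on within cardiomyocytes (CMs) or come with more endothelial cells (ECs).

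Tek, also known as Tie2, is the receptor tyrosine kinase to which angiopoietins bind, and Tie1 is its relative, long regarded as an orphan receptor, which acts in complexes with Tek. Angpt1 activates Tek, whereas Angpt2 can block or weakly activate it depending on the context. In the forming heart, endocardium carries the receptors and lies against the myocardium, so ligand and receptor may come from different cells. Cdh5 (VE-cadherin), Esam and Cldn5 build endothelial junctions, Pecam1 (CD31) is an adhesion molecule at the same contacts, Emcn is a sialomucin of venous and endocardial surfaces, and Eng is a co-receptor for ligands of the TGF-β and BMP family.

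Values were available for 74 control and 69 cKO cells from 2 sequencing batches. They are TPM, which the authors scaled to a fixed total per cell, and levels are given as log2(TPM + 1). No embryo is named in the labels. Each genotype therefore counts as 1 sample, no test between genotypes or classes was possible, SDs describe scatter across cells, and the exact Clopper-Pearson 95% intervals (CI) cover counting error only. Where no cell reached the level, the limit given is instead 3 counts of the total. The number of detected genes (TPM above 0) had a median of 8820 in control and 8456 in cKO cells, and reads per cell are unknown. Cells were classed by 55 marker genes that include none of the 10 genes. This gave 92 CM-like cells (27 control and 65 cKO), 22 endothelial-like cells, 13 epicardial-like cells and 3 erythroid-like cells, the last 3 classes from control hearts alone. A further 13 cells led by mitochondrial transcripts stayed unnamed. All 13 endothelial markers were high in the endothelial-like class, together with 5 of 14 mesenchymal markers. In the epicardial-like class all 6 epicardial markers were high, together with 9 of 14 mesenchymal markers. Its top 10 genes held 2 markers of each list, so this class is mesenchymal as well as epicardial by these markers.

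The sequences before the start sites of the receptors and of Eng are shown because these genes were found together in the same cells. RefSeq promoter sequences (GRCm38.p6, 250 bases before to 50 bases after the start, read on the strand of the gene) were at hand for 5 of the 10 genes. Capitals mark the ETS cores AGGAAG and CGGAAG, the GATA core AGATAA and the TATA box TATAAA, each searched on both strands.
Tie1, chr4:118489800-118490099, minus strand: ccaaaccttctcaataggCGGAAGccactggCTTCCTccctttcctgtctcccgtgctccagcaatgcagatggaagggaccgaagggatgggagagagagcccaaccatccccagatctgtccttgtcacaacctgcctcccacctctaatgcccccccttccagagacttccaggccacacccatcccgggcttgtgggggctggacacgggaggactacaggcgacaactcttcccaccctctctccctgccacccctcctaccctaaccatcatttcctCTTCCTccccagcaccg
Tek, chr4:94739039-94739338, plus strand: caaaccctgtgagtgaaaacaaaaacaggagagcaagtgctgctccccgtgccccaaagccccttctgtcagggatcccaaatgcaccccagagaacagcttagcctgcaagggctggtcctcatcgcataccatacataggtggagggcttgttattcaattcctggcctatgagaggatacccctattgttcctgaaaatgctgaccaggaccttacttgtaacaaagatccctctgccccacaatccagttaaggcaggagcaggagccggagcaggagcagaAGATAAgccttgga
Eng, chr2:32646345-32646644, plus strand: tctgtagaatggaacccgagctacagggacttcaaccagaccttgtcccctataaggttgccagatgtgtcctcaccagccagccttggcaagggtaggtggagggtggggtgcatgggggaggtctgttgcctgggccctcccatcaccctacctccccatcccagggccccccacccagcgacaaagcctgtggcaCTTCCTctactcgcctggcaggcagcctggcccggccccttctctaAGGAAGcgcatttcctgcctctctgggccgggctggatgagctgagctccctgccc
Tie1 held 3 ETS cores, Eng held 2, and Emcn, not printed, held 2. The letters of either ETS core were absent from the window of Tek, which held 1 GATA core, and from that of Cldn5. No TATA box was found in the 5 windows. Among all 32851 promoters of the RefSeq table, 46.5% held an ETS core, 11.2% the GATA core and 13.6% the TATA box, so an ETS core in 3 of 5 windows is near the share among all genes.

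In control hearts, both Tie receptors and most of the surface genes were found in endothelial-like cells and were close to 0 in CM-like cells. Of the 9 genes that passed the filter (TPM above 0 in more than 10 compared cells), 7 were at least 1 log2 unit higher in endothelial-like than in CM-like cells in both batches, and 1, Angpt1, was lower by that measure. The same criterion was met by 9.68% of the 13186 genes tested in the higher direction and by 5.22% in the lower direction. The median difference of the 9 genes was 5.74, against 0.24 over all genes. Over all genes it was 0.49 in batch 1 and −0.03 in batch 2.

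Tek (chr4:94739289-94874976, plus strand, GRCm38) was found in every endothelial-like cell. Its lowest, median and highest values there were 33.4, 185 and 336 TPM, and it reached 1 TPM in 4 of 27 control CM-like cells, the highest of which had 15.8 TPM. The means of log2(TPM + 1) were 7.23 ± 0.95 (SD, n = 22 cells) and 0.44 ± 0.94 (n = 27), a difference of 6.79, or 7.06 in batch 1 and 6.35 in batch 2. The values of the 2 classes did not overlap. Tie1 had a median of 116 TPM in the same cells, with a range from 0.34 to 289 TPM, and was at or above 1 TPM in 21 of 22. In control CM-like cells Tie1 stayed at or below 1.82 TPM, and the difference of the means was 5.74 (5.48 and 5.99 in the batches). The 1 endothelial-like cell in which Tie1 was low had 236 TPM of Tek, the lowest Cdh5 and Pecam1 of its class, and 3 of 7 myeloid markers at 1 TPM or more.

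**Figure D1:**
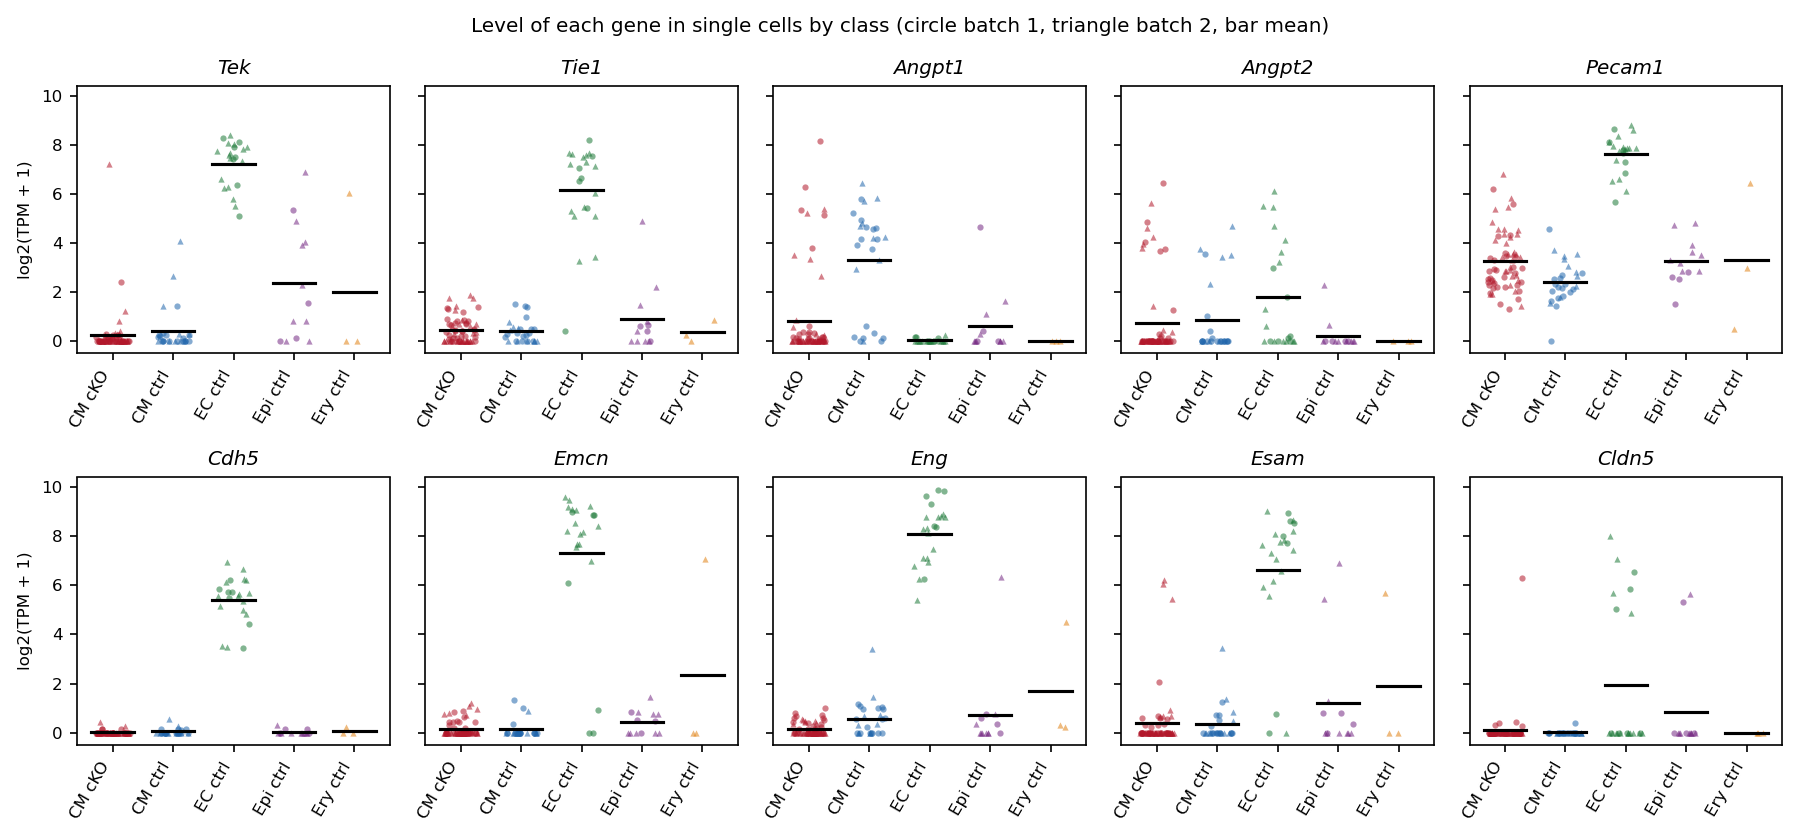
Level of the 10 genes as log2(TPM + 1) in CM-like (CM), endothelial-like (EC), epicardial-like (Epi) and erythroid-like (Ery) cells of control (ctrl) and cKO hearts. Each point is a cell, circles are batch 1 and triangles batch 2, and bars are means. Receptors and surface genes other than Cldn5 are high in EC, Angpt1 is high in CM of control hearts, and Pecam1 alone lies above 0 in nearly every cell of every class.

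Among surface genes, Eng and Emcn were the most abundant in endothelial-like cells on the TPM scale, which is per transcript length. Eng had a median of 326 TPM (range 40.7 to 949) and Emcn of 316 TPM (range 0 to 768). They were followed by Pecam1 at 228 TPM (49.4 to 447), Esam at 205 TPM (0 to 520), Tek at 185 TPM, Tie1 at 116 TPM and Cdh5 at 47.9 TPM (9.80 to 124). Every pair of neighbours in this order had overlapping ranges, with SDs of 0.82 to 2.97 log2 units across cells. Cdh5 had the lowest median of these genes but was seen in all 22 cells.

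The genes differed in how evenly they were spread over the endothelial-like cells. Cdh5, Eng, Pecam1 and Tek were at 1 TPM or more in 22 of 22 cells, Emcn and Esam in 19 of 22 (86.4%, CI 65.1 to 97.1), Angpt2 in 10 of 22 (45.5%, CI 24.4 to 67.8) and Cldn5 in 7 of 22 (31.8%, CI 13.9 to 54.9). The endothelial-like cells with Emcn under 1 TPM all belonged to batch 1, where it reached 1 TPM in 4 of 7 cells, compared with 15 of 15 in batch 2. Its mean was 4.82 ± 4.34 in batch 1 and 8.47 ± 0.79 in batch 2. Eng had the opposite order, 8.82 ± 1.29 in batch 1 and 7.73 ± 1.09 in batch 2. Whether the batches sampled different endothelial cells or different embryos cannot be told apart. Leaving aside Pecam1, 19 of 22 endothelial-like cells held 6 or 7 of the other 7 receptor and surface genes at 1 TPM, and no cell held fewer than 3. In the control CM-like cells the number of these 7 genes had a median of 0 and a maximum of 5, and 16 of 27 cells had none.

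Cldn5, a tight junction protein of which the mature endothelial barrier is rich, was either absent or clearly present. The 7 endothelial-like cells with Cldn5 ranged from 28.5 to 259 TPM, and the other 15 were listed at 0. Cldn5 did not pass the filter in either comparison. Within the class, its level ran against that of Tek with a Pearson r of −0.34 over 22 cells, the lowest of the 28 pairs among the 8 receptor and surface genes, and the highest was 0.61 for Cdh5 with Esam. These are descriptions over few cells of 2 batches.

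Tek was also found in part of the epicardial-like cells. It reached 1 TPM in 7 of 13 of them (53.8%, CI 25.1 to 80.8), with a median of 1.96 TPM and a maximum of 118 TPM, while Cdh5 reached 1 TPM in none of them, where a count of 0 leaves room for up to 23.1% of cells at this level. Esam was at or above 1 TPM in 3 of these 13 cells and Eng in 1. One epicardial-like cell had 5 of 5 megakaryocyte markers and held Tek, Tie1 and Esam, the last at 119 TPM, the highest value of its class. Without the 1 cell of this class that had 3 or more blood markers, the mean of Esam was 0.72 instead of 1.20, that of Tie1 0.55 instead of 0.89, and that of Tek 2.24 instead of 2.36. In the 3 erythroid-like cells, Tek, Emcn, Eng and Esam each reached 1 TPM in 1 cell. Tek, Eng and Esam did so in the same cell, which also had 5 of 6 epicardial and 8 of 14 mesenchymal markers at 1 TPM. The cell with Emcn had 7 of 13 endothelial and 14 of 15 cardiomyocyte markers at that level. The remaining cell, with no epicardial or mesenchymal marker at 1 TPM, held none of these genes at that level.

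Angpt1 (chr15:42424723-42676977, minus strand, GRCm38) had the reverse distribution of its receptor between CM-like and endothelial-like cells. It was at or above 1 TPM in 19 of 27 control CM-like cells (70.4%, CI 49.8 to 86.2), in 3 of 13 epicardial-like cells and in 0 of 22 endothelial-like cells, where a count of 0 leaves room for up to 13.6% of cells. Its lowest, median and highest values in control CM-like cells were 0, 17.1 and 84.8 TPM, compared with a highest value of 0.19 TPM in endothelial-like cells. The mean of log2(TPM + 1) was 3.31 ± 2.21 in CM-like and 0.03 ± 0.08 in endothelial-like cells, so endothelial-like cells were lower by 3.28 pooled, with differences of −2.71 in batch 1 and −4.20 in batch 2. Angpt1 and Tek at 1 TPM or more coincided in 3 control CM-like cells and in no endothelial-like cell. In the epicardial-like class, all 3 cells with Angpt1 also held Tek at that level. Across the 74 control cells, the genes with levels most like Angpt1 were Hspb7 (r = 0.75), Des (0.75) and Acta1 (0.75), which encode a small heat shock protein of muscle, desmin and a sarcomeric actin.

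In cKO CM-like cells Angpt1 was lower, the only one of the 10 genes past the threshold between genotypes. Its lowest, median and highest values were 0, 0 and 279 TPM in the 65 cKO cells, and 10 cells reached 1 TPM (15.4%, CI 7.63 to 26.5). The mean was 0.83 ± 1.85 in cKO and 3.31 ± 2.21 in control, a difference of −2.48. It held in each batch, with 1.00 against 2.78 in batch 1 (difference −1.77) and 0.67 against 4.22 in batch 2 (−3.55). The ranges of the genotypes overlapped. Among the genes tested, 2.94% were lower and 2.86% higher in cKO by the same criterion, and 0.35% had a more negative pooled difference than Angpt1. The log2(TPM + 1) scale ends at 0, and among the 10 genes only Angpt1 (3.31) and Pecam1 (2.42) had control means above 1. The others could therefore not be called lower in cKO CM-like cells, whatever their change.

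The genotypes differed in how many CM-like cells held Angpt1 more than in its level where present. Among cells at or above 1 TPM, the median was 23.4 TPM in the 19 control cells (range 6.65 to 84.8) and 34.9 TPM in the 10 cKO cells (range 5.32 to 279). One cKO cell alone held 51.03% of the summed Angpt1 TPM of its group. The log2 ratio of mean TPM (plus 1), which that cell dominates, was −1.18, and under this measure or with a pseudocount of 10 (−0.95) Angpt1 no longer passed the threshold in both batches. The first 737 bases of an Angpt1 transcript also match Gm17473, which reached 1 TPM in 2 of 27 control and 0 of 65 cKO CM-like cells, so part of the reads of these 2 genes may be shared. Median detected genes were 8458 in control and 9877 in cKO CM-like cells of batch 1, and 9679 and 7786 in batch 2. The part of detection in the Angpt1 values was not tested.

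**Figure D2:**
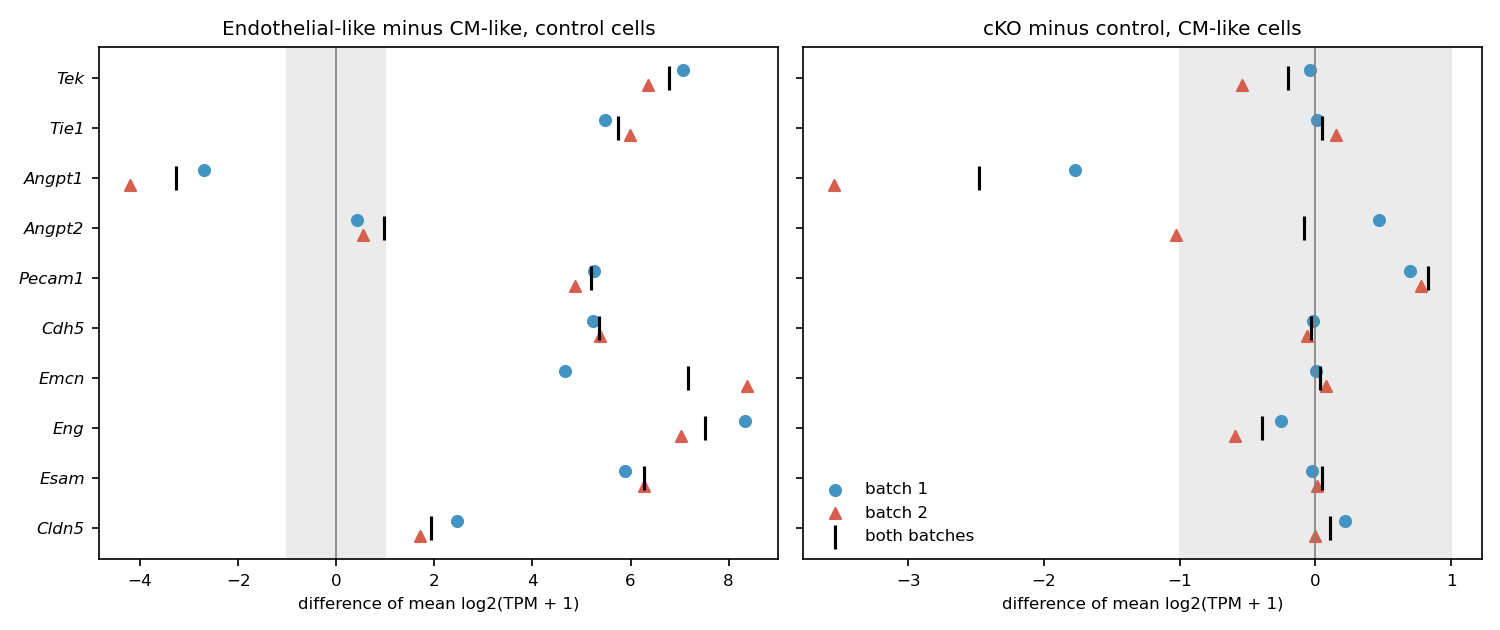
Difference of mean log2(TPM + 1) for each gene between endothelial-like and CM-like control cells (left) and between cKO and control CM-like cells (right), for both batches together (bars), batch 1 (circles) and batch 2 (triangles). Grey marks differences under 1 log2 unit. On the left 7 genes lie beyond 4 log2 units in every batch and Angpt1 is negative, and on the right Angpt1 alone lies outside the grey area in both batches.

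Angpt2 was scattered over classes. It reached 1 TPM in 10 of 22 endothelial-like cells, 7 of 27 control CM-like cells and 12 of 65 cKO CM-like cells, with medians among these cells of 13.9, 10.3 and 14.9 TPM. Endothelial-like cells had a mean of 1.81 ± 2.21 and control CM-like cells of 0.85 ± 1.52, and the difference of 0.97 was 0.43 and 0.54 within the batches. Both classes had higher means in batch 2 (2.31 and 1.77) than in batch 1 (0.74 and 0.30). Between genotypes its difference was −0.09 over all cells, with 0.47 for batch 1 and −1.03 for batch 2, so the direction depended on the batch. The genes nearest to it across control cells were Tmc6 (r = 0.54), Msh4 (0.53) and Sap30 (0.53), weaker likenesses than for the other receptor and ligand genes.

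The receptors and junction genes stayed low in cKO CM-like cells. None of the 9 genes that passed the filter was higher in cKO by the criterion, against 2.86% of the 15057 genes tested. Over all genes the median difference was 0.03, with 0.18 in batch 1 and −0.20 in batch 2. Tek reached 1 TPM in 3 of 65 cKO cells, and 94.3% of its summed TPM lay in 1 cell of 149 TPM. Its difference was −0.20 (−0.04 and −0.54 in the batches), but the direction turned for the log2 ratio of mean TPM plus 1 (0.80) and without CM-like cells that had 3 or more endothelial markers (0.11). Eng reached 1 TPM in 1 of 65 cKO and 6 of 27 control CM-like cells, a difference of −0.40 (−0.25 and −0.59). Esam differed by 0.05, with 4 cKO cells at 3.23 to 74.05 TPM, and Emcn and Tie1 differed by 0.03 and 0.05. Cdh5 did not reach 1 TPM in any of the 92 CM-like cells. For the 65 cKO cells this leaves room for up to 4.62% at that level. Cldn5 was found at 1 TPM in 1 cKO cell (78.2 TPM). Endothelial clustering markers in CM-like cells had a median of 2 of 13 at 1 TPM and a maximum of 6 in either genotype, with a summed level of 0.0757 to 429 TPM in cKO and 0.874 to 267 TPM in control, compared with 1292 to 4865 TPM in endothelial-like cells. Their part in these values was not tested.

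Pecam1 differed from the other surface genes by being present almost everywhere. It was at or above 1 TPM in 141 of 143 cells, namely in 65 of 65 cKO CM-like cells (CI 94.5 to 100%), 26 of 27 control CM-like cells (CI 81.03 to 99.9%), 22 of 22 endothelial-like, 13 of 13 epicardial-like, 2 of 3 erythroid-like and 13 of 13 unnamed cells. Its lowest, median and highest values were 1.49, 6.60 and 111 TPM in cKO CM-like cells and 0, 3.96 and 22.6 TPM in control CM-like cells. Epicardial-like cells, in which CD31 is not a marker, had a median of 8.16 TPM and a range of 1.87 to 26.8 TPM. Low Pecam1 values were thus found in each class outside the endothelial-like one and in both genotypes. Among the 4382 genes with a median above 0 and at most 10 TPM over the 92 CM-like cells, 4 (0.0913%) reached 1 TPM in as many of these cells as Pecam1 or more, and the median gene of that group did so in 45 cells. This group was chosen after the values were seen.

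Pecam1 was on average higher in cKO than in control CM-like cells, by less than the threshold. Over all cells the difference was 0.83, and batch 1 gave 0.70 and batch 2 gave 0.78. The means were 3.25 ± 1.20 and 2.42 ± 0.89. It was within the SD across cells of both genotypes. Of the 65 cKO cells, 8 lay above the highest control CM-like cell and 3 above the lowest endothelial-like cell. Both genotypes had higher means in batch 2 (3.61 in cKO and 2.83 in control) than in batch 1 (2.88 and 2.18). With a pseudocount of 0.1 the difference was 1.03, and as a log2 ratio of mean TPM it was 1.17, while it stayed below 1 within a batch in at least 1 batch under either measure.

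On the log2(TPM + 1) scale the other surface genes differed less than Pecam1. Their differences ranged from −0.40 (Eng) to 0.10 (Cldn5) with a mean of −0.05, so the difference of Pecam1 exceeded this mean by 0.88 (0.71 in batch 1 and 0.89 in batch 2). As log2 ratios of mean TPM (plus 1), which few high cells can set, Esam (1.30) and Cldn5 (1.13) had values similar to the 1.17 of Pecam1. Of 65 cKO CM-like cells with Pecam1 at 1 TPM, 58 (89.2%) held none of Cdh5, Emcn, Eng, Esam and Cldn5 at that level, and so did 19 of 26 control CM-like cells (73.1%), compared with 0 of 22 endothelial-like cells. Summed over cells, Pecam1 amounted to 0.61 times the TPM of Eng in endothelial-like cells, 7.00 times in control CM-like cells and 97.7 times in cKO CM-like cells. The last 2 ratios rest on very low sums of Eng, 20.9 TPM over 27 control and 8.93 TPM over 65 cKO cells. Of the control sum, 45.3% lay in 1 cell. The ratio to Esam was 1.07, 9.12 and 4.58, so it was lower in cKO than in control CM-like cells.

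**Figure D3:**
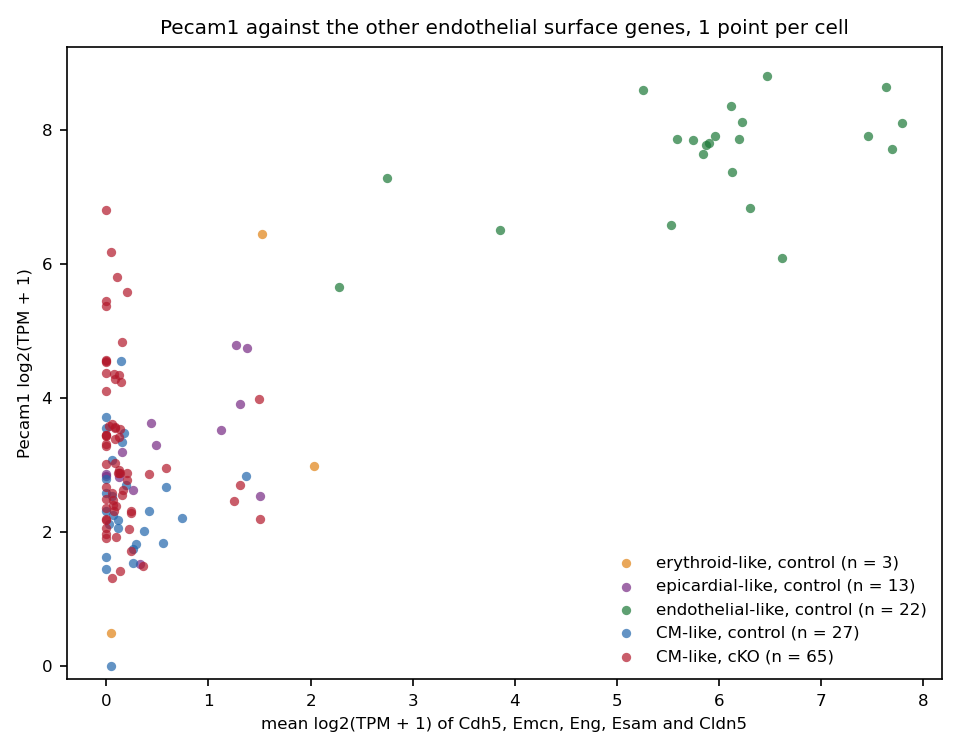
Pecam1 against the mean of Cdh5, Emcn, Eng, Esam and Cldn5, both as log2(TPM + 1), with 1 point per cell coloured by class and genotype. Endothelial-like cells are high on both axes, whereas CM-like cells of both genotypes spread between 0 and 6.81 on the Pecam1 axis and stay at or below 1.504 on the other.

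A stretch of the Pecam1 locus is shared with many other genes. Of 8 Pecam1 transcripts in GENCODE vM21 (gene on chr11:106654217-106750628, minus strand, GRCm38), 1, the retained intron transcript Pecam1-208 of 2142 nt, matched transcripts of 1283 other genes over at least 100 bases at 90% identity or more. Among the other 9 genes, Tie1-202 matched 244 genes, Angpt1 only Gm17473, and the remaining 7 genes none. The parts of both transcripts that were matched by most genes are printed below because they resemble each other and the B1 element, a short interspersed repeat of the mouse genome. Capitals mark the longest run of letters that both share, 32 bases, and over 133 aligned bases they were 91.0% identical.
Pecam1-208, bases 221 to 370, chr11:106662957-106663106, minus strand: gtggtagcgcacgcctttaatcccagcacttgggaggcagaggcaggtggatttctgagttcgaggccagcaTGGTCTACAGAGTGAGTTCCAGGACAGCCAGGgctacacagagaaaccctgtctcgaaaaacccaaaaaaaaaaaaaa
Tie1-202, bases 2698 to 2836, chr4:118478047-118478185, minus strand: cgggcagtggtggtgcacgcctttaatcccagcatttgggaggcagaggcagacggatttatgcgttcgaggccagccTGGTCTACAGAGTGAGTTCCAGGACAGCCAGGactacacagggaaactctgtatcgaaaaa
No exon of the other 7 Pecam1 transcripts or of the other 2 Tie1 transcripts covers these positions.

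**Figure D4:**
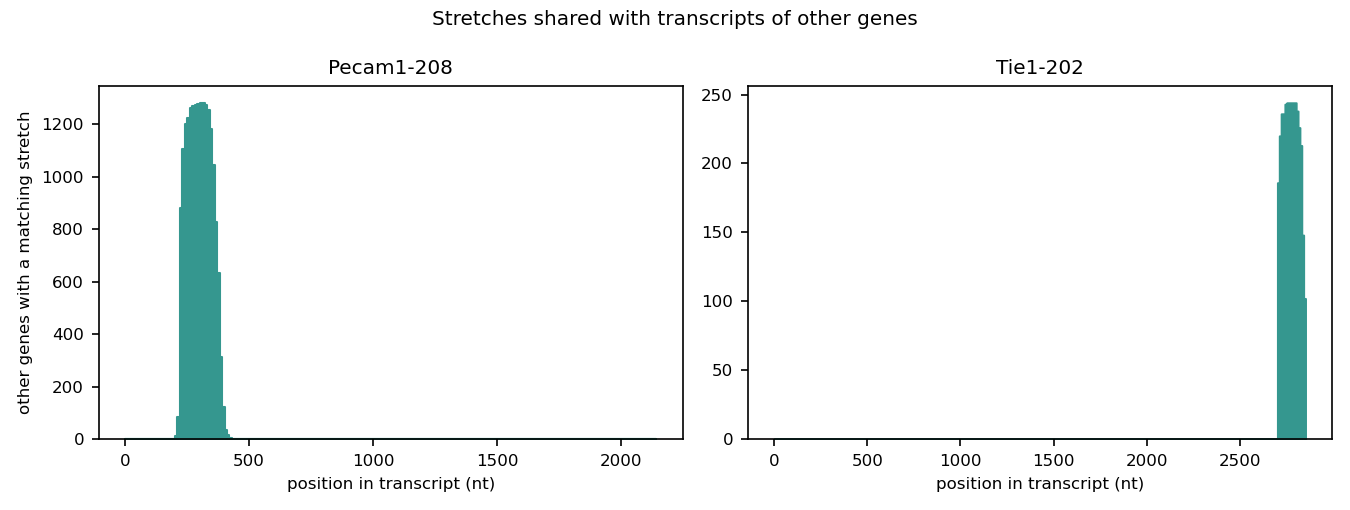
Number of other genes with a transcript that matches each position of Pecam1-208 (left) and Tie1-202 (right), with the position in the transcript in nucleotides. Matches pile up in 1 stretch of each, with up to 1282 genes for Pecam1-208 and 244 for Tie1-202.

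Tie1, the other gene with such a stretch, was above 0 TPM in 40 of 65 cKO and 17 of 27 control CM-like cells, at 2.69 TPM at most. It reached 1 TPM in 9 and 3 of these cells, unlike Pecam1. Among the genes without any match, the cells above 0 TPM ranged from 5 (Cdh5 and Cldn5) to 23 (Eng) of 65 cKO cells. In the 27 control cells they ranged from 1 (Cldn5) to 16 (Eng). The 3 genes nearest to Pecam1 across cKO CM-like cells, Mir124-2hg (r = 0.55), Gm26523 (0.54) and Socs1 (0.54), did not share the stretch. Of the 100 nearest genes 7 shared it, compared with 7.24% of the 11253 genes ranked. The 967 genes that share it and were tested had a median difference between genotypes of 0.07, with 0.24 in batch 1 and −0.18 in batch 2. Over all genes tested the median was 0.03, with 0.18 and −0.20 in the batches. Of the genes that share it, 2.79% were called higher and 2.07% lower, near the 2.86% and 2.94% of all genes tested. Because the table holds 1 value per gene, transcripts cannot be told apart, the annotation release used by the authors was not given in the sources used here, and the part of this stretch in the Pecam1 values was not tested. In CM-like cells Pecam1 also went with the share of TPM from mitochondrial transcripts, with r = 0.37 in cKO and 0.46 in control. For the number of detected genes r was −0.19 and 0.02. In control, 1 cell had both the highest Pecam1 (22.6 TPM) and the highest mitochondrial share (41.1%). The control cell next in share (24.8%) had 3.96 TPM, and r without the first cell was not computed. The median mitochondrial share was 2.90% in cKO and 6.24% in control CM-like cells, and its part was not tested either.

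Correlations across all control cells are dominated by the contrast between endothelial-like cells and the rest. Most receptors and surface genes had another of these genes among their 3 nearest, beside further genes, but Tie1 and Cldn5 did not. Cd93, a C-type lectin receptor and one of the clustering markers, was nearest to Cdh5 (r = 0.97) and Tie1 (0.91), and was among the 3 nearest to Eng (0.94). Calcrl, the receptor component for adrenomedullin, was nearest to Eng (0.94) and came next for Cdh5 (0.95) and Tie1 (0.90). Eng itself was nearest to Tek (0.89), followed by Calcrl (0.88) and Rasgrp3 (0.88). Gpr116 (0.92) and the transcription factor Sox7 (0.87) were nearest to Emcn, and Sox7 (0.87) and Ctla2a (0.85) to Esam. For Pecam1 they were Mmp2 (0.90), Cdh5 (0.89) and Plvap (0.88), of which Mmp2 and Plvap were clustering markers. Gimap6 (0.89) was also among the 3 nearest to Tie1. Cldn5 had weaker likenesses to Sh3d19 (0.61), Epas1 (0.58) and Man2a1 (0.57).

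Of 23 genes that act with or below Tie receptors, 19 passed the filter in control cells, of which 8 were higher and 2 lower in endothelial-like than in CM-like cells. Over all genes tested, 9.68% were higher and 5.22% lower between these classes. In cKO against control CM-like cells these shares were 2.86% and 2.94%, and both pairs apply to each list below. The phosphatase Ptprb (VE-PTP, a clustering marker), which dephosphorylates Tek, was higher by 2.51, the transcription factor Foxo1 by 2.94 and the nitric oxide synthase Nos3 by 3.82. Mmp14 (3.21), Shc1 (2.46), Pik3r1 (1.73) and the integrin subunit Itgb1 (1.59) were also called higher. The adaptor Grb14 was lower by 3.67 log2 units (difference −3.67) and the phosphatase Ptpn11 by −1.69. Between genotypes, Itgb1 was called higher in cKO CM-like cells, with a difference of 1.08, and no gene of the list was called lower. The median difference was 0.12, close to that over all genes.

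Of 17 partners of Eng, 13 passed in each comparison. Tgfbr3 (difference 3.16), the inhibitory Smad7 (3.13), the BMP target Id1 (1.70) and the type 2 receptor Bmpr2 (1.69) were higher in endothelial-like cells. In cKO CM-like cells the ligand Tgfb2 was higher by 2.87 (2.87 in batch 1 and 2.96 in batch 2), with a mean of 6.00 ± 2.34 against 3.14 ± 2.55, and Smad7 was higher by 1.55. No partner was called lower in either comparison. Eng itself was not called between genotypes, and its control mean of 0.56 left no room for a call in the lower direction.

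Cadherins differed between CM-like and endothelial-like cells. Of 18 genes 15 passed the filter in control cells, with 4 higher and 1 lower in endothelial-like cells. Cdh2 (N-cadherin) was lower by 5.13 log2 units (difference −5.13), where Cdh5 was higher by 5.35, and the higher genes included Cdh11 (2.29), F11r (2.26) and Ctnnb1 (1.59). Between genotypes, cKO CM-like cells were higher for 2 of 14 genes, Mllt4 (afadin, 2.28) and Ctnnb1 (β-catenin, 1.20), against 2.86% of all genes tested. The median of the list was 0.75, against 0.03 over all genes, although Cdh5, Esam and Cldn5 themselves differed by 0.10 or less. Of 24 other claudins only 3 passed the filter, and none was called in either comparison. Cldn25 had the largest difference in each (1.22 and 1.20), while the smallest were −0.75 (Cldn12) between the classes and −0.01 (Cldn19) between genotypes.

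Of 17 other endothelial surface genes, 12 passed in control cells and 9 were higher in endothelial-like cells. Icam2 (7.31), Cd34 (6.51), Cd93 (6.03) and Ecscr (5.84) were clustering markers, and their height is part of how the class was defined. Plxnd1 (4.30), Thbd (3.05), Eltd1 (2.96), Mcam (1.74) and Clec14a (1.54) took no part in the clustering. The adhesion molecule Vcam1 was lower (difference −4.33), with a mean of 0.55 in endothelial-like and 4.88 in CM-like cells. Between genotypes, 1 of 10 genes was called, Podxl, a sialomucin like Emcn, which was higher by 1.11 in cKO CM-like cells (1.05 and 1.26 in the batches).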

How the data were processed

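The deposited values are TPM, which the authors made with Salmon against mm10 per the labels and the study's methods. The Salmon version and annotation release were not given in the sources used here. Cells with a low proportion of mapped reads, or with reporter transcripts at odds with their genotype, were dropped by the authors. Of 170 labelled samples 143 had a column, and 27 were not analysed here. Cells were hand-picked, and no doublet caller was run. Here, log2(TPM + 1) of 55 markers was z-scored over cells, clustered by Ward linkage (scipy 1.17.1) and divided into 5 clusters. A cluster was named by the marker class of which the highest proportion of genes was high in it, with at least 3 such genes and no other class leading its top 10 genes. TPM keeps no read depth, so precision per value is unknown. A gene was called when its mean log2(TPM + 1) differed by at least 1 pooled and, in the same direction, in both batches. The rule was run on simulated data in which only genes detected in most cKO cells were changed, without a batch effect. That run does not cover genes at 0 in most cells, as most of the 10 genes are in cKO CM-like cells. Transcripts were compared by megablast (BLAST 2.17.0, expect value 1e-10, low-complexity filter off). The genes, markers, gene lists and rules were chosen with earlier results of these data known. Named are the 10 genes, the 3 genes with the highest Pearson r to each across control cells (for Pecam1 also across cKO CM-like cells) among genes at 1 TPM in more than 10 cells, and list genes that were called, otherwise the largest and smallest difference. Some called genes of the lists are not reported here.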

Additional observations from a re-analysis of the deposited data

How the results depend on the processing

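Each result was recomputed under up to 17 alternatives (other clusterings, pseudocounts, summaries, batches and cell filters), of which 2, leaving out cells with over 10% mitochondrial TPM or with 3 or more myeloid or megakaryocyte markers, were added after seeing the data. Of the 10 genes, 1 was called lower in cKO CM-like cells. This number was 0 with a pseudocount of 10, 0 with the log2 of mean TPM plus 1, and 2 (Angpt1 and Angpt2) in batch 2 only. The 1 of the 10 genes called lower in endothelial-like cells became 0 in batch 2 only, where Angpt1 had a difference of −4.20 but too few cells for the filter. None of the 10 genes was called higher in cKO under any alternative run. The Angpt1 difference between genotypes ranged from −4.17 to −0.95, that of Pecam1 from 0.42 to 1.17, and its excess over the other surface genes from 0.41 to 1.24. The shares of all genes called moved more, between 1.01% and 15.1% (higher) and between 0.76% and 25.98% (lower) for the genotypes, and between 3.81% and 36.6% and between 2.19% and 22.5% for the classes, with 5.28% higher against 1.04% lower in cKO for 4 clusters. Clusters of the 1000 most variable genes put 37 control cells in the endothelial-like class, and the Tek difference was then 4.83. No paired analysis was possible because the labels name no embryos and each genotype is 1 sample.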
